A study of Mus musculus with 120 samples.

Results

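Dendritic cell genes were followed in immunological niche (IN) biopsies by bulk RNA sequencing. The 10 genes, Flt3, Zbtb46, Batf3, Irf8, Irf4, Siglech, Cd209a, Itgae, Cd80 and Cd86, were taken by name from both count tables, and all 10 were found once in each, among 55487 genes that the tables share, of which 41759 had a count in some sample. An IN is a porous polycaprolactone scaffold placed under the skin, where host cells settle, and the labels give it as the tissue of all 120 samples. NOD/ShiLtJ mice develop autoimmune diabetes spontaneously, and NOR/LtJ mice, a related strain, are resistant. All mice were female and carried scaffolds implanted at 4 weeks of age, which were explanted and replaced in rotation, so that age, time to onset and the history of earlier explants rise together and cannot be told apart. The paper describes weekly explants from 6 weeks of age, in rotation through 4 sites. By this schedule, scaffolds explanted at 6 weeks were among those implanted at 4 weeks, and those explanted from 10 weeks on were replacements. Scaffolds explanted after 6 weeks had thus been in place longer than those at 6 weeks. The time in place cannot be separated from age, time to onset or earlier explants. The 5 NOR mice gave 23 samples, taken every 4 weeks from 6 to 22 weeks of age. NOD mice that stayed normoglycemic (nonprogressors, 11 mice) gave 33 samples labelled by age, 11 of them at 6 weeks, and 6 labelled by days after implantation. NOD mice that became hyperglycemic (progressors, 10 mice) gave 10 samples at 6 weeks, and their later samples are counted back from onset: 8 biopsies preceded it by 7 weeks (−7), and −5, −3, −1 weeks and onset itself have 10 biopsies each. Batch 1 held 74 samples, with all NOR samples, and batch 2 held 46, with all −7 samples. Levels are CPM, counts scaled to a common library total by the TMM method over all samples, and are never compared between batches. Where several values of 1 group are listed, they follow the mouse numbers.

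Dendritic cells are sentinel cells of the immune system. They take up antigen in tissues, mature, move to lymph nodes and present the antigen to T cells. Their growth depends on the cytokine FLT3 ligand and its receptor, encoded by Flt3, and conventional dendritic cells are marked by the transcription factor Zbtb46. Type 1 conventional dendritic cells (cDC1), known for cross-presentation to CD8 T cells, need the transcription factors Batf3 and Irf8, and those in tissues carry the integrin CD103, encoded by Itgae. Type 2 cells (cDC2) depend on Irf4, and the lectin Cd209a marks some of them and monocyte-derived dendritic cells. Plasmacytoid dendritic cells make type I interferon and carry the surface lectin Siglech. Cd80 and Cd86 encode the costimulatory ligands of CD28 and CTLA-4. In NOD mice, dendritic cells are known as carriers of islet antigen. None of the 10 genes belongs to dendritic cells alone: Irf8, Cd80 and Cd86 are also used by macrophages and B cells, Irf4 by plasma cells and activated T cells, and Itgae by T cells of tissues. In bulk biopsies, fewer cells of a type and less RNA per cell cannot be told apart.

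The promoters of Irf8 and Cd80 are shown because these genes moved in opposite directions after 6 weeks of age. RefSeq windows (GRCm38.p6) matched 8 of the 10 genes, all but Itgae and Cd86. The 250 bases before the start site of each gene are printed 5′ to 3′, on the plus strand for both genes, at chr8:120736108-120736357 and chr16:38458683-38458932, and neither stretch overlaps an annotated exon. The Cd80 stretch lies inside the annotated span of that gene (chr16:38455561-38496335), which begins further upstream, and the Irf8 stretch ends where that gene begins (chr8:120736358-120756694). Capitals mark matches to a GAS motif (TTCNNNGAA) in Irf8 and to an AP-1 motif (TGANTCA) in Cd80, searched on both strands.
Irf8: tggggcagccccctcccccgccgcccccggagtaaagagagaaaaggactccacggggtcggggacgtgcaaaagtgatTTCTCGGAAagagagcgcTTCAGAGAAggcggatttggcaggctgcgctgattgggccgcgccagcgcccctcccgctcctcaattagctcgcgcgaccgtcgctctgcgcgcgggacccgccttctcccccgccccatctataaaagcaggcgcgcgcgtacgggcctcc
Cd80: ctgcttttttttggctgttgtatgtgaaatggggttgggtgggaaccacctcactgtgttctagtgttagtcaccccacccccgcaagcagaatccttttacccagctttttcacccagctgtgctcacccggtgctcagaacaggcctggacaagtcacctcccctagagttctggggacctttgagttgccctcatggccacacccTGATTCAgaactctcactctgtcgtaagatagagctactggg
The Irf8 stretch held 2 GAS matches, the first of them starting 171 bases and the other 153 bases before the start site. RefSeq gives Irf8 a further start site, whose window (chr8:120738389-120738638) held no match to any motif searched. A GAS match was present in 7.02% of 32851 promoter windows of the same length, and an AP-1 match in 6.75%. The windows of Batf3 and Siglech held 1 GAS match each and that of Zbtb46 held 1 AP-1 match, whereas Flt3, Irf4 and Cd209a held neither. Like that of Cd80, the Batf3 and Zbtb46 windows lie inside the annotated spans of their genes. The windows of Batf3, Irf4 and Siglech overlap an annotated exon of the same gene. No member window held an ISRE motif (GAAA, any 2 bases, GAAA, found in 2.98% of windows) or an EICE motif (GGAA, any 2 bases, GAAA, found in 2.30% of windows). A match is a run of letters and not a shown binding site.

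Counts per sample ranged from 4722396 to 56185434 in batch 1 and from 29029239 to 43880986 in batch 2. A single gene took 85.7% of the counts in the library of NOR mouse 5 at 18 weeks, which left 1233373 counts on the others. Flt3, Batf3 and Itgae had no count there, whereas each member had a count in every other library. In the 22-week libraries of nonprogressors 1 to 4, the gene Rn7s2 took 12.8, 19.2, 24.3 and 30.5% of counts. At 6 weeks the highest gene took 2.08 to 4.43% in these mice. Rn7s2 also reached 17.5% in progressor 4 at −3 weeks. The part of this share in the levels of the members was not tested. Counts of the members were modest, with medians over the 120 samples from 47 for Cd209a to 3393 for Irf8. Cd209a is 1 of a family of similar lectin genes, among which reads may have been divided, and Flt3, Zbtb46, Irf8 and Itgae overlap other annotated genes, so a share of their reads is uncertain.

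Per kilobase of exon, Irf8 was the highest of the 10 genes in both batches, with a median of 15.3 CPM per kilobase in batch 1 and 13.5 in batch 2. Irf4 followed with 2.89 and 3.48 CPM per kilobase. The quartiles of Irf8 and Irf4 lay apart, whereas those of Irf4, Batf3 and Cd80 overlapped in batch 1. Zbtb46 varied little, with quartiles of 1.44 and 1.82 CPM per kilobase in batch 1 and 1.60 and 1.93 in batch 2. At the lower end of the order, Siglech, Flt3 and Itgae had medians between 0.489 and 0.733 CPM per kilobase, with overlapping quartiles in both batches. Cd209a lay between Cd86 and Siglech, at 0.707 and 1.24 CPM per kilobase.

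**Figure D1:**
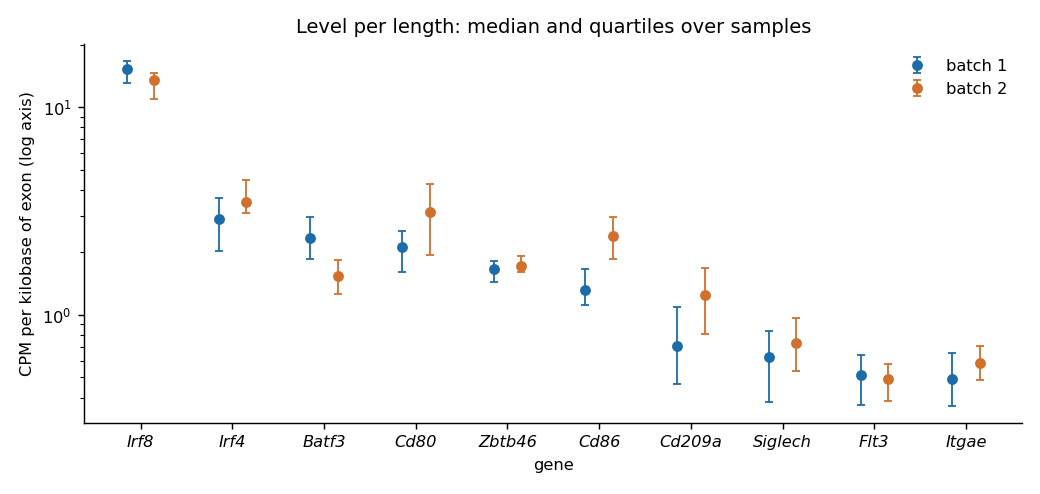
Level of the 10 genes per kilobase of exon (log axis); points are medians and bars are quartiles over the 74 samples of batch 1 (blue) and the 46 of batch 2 (orange). Irf8 lies above all other members, and Flt3, Itgae and Siglech lie lowest.

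Batf3 (chr1:191097847-191108945, plus strand) rose after 6 weeks of age in progressors. Its level at 6 weeks was 3.33, 2.07, 2.05, 2.03 and 1.62 CPM in progressors 1 to 5 of batch 1, and at onset it was 2.97, 3.55, 5.38, 5.47 and 4.88 CPM in the same mice. In batch 2 (progressors 6 to 10) it was 1.72, 1.13, 1.84, 1.54 and 1.12 CPM at 6 weeks and 4.20, 2.55, 3.49, 3.22 and 4.01 CPM at onset. The 6-week and onset values did not overlap in batch 2, and in batch 1 they overlapped only through progressor 1. The mean of −5, −3, −1 weeks and onset exceeded 6 weeks by 0.91 ± 0.12 (SE), adjusted p = 1.4e-08 (log2 fold change, edgeR), and 9 of 10 mice were higher. The change was 0.84 ± 0.18 within batch 1 and 1.00 ± 0.16 within batch 2, where 27.0% and 31.1% of genes were called.

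Irf8, which acts with Batf3 in cDC1 and is also a factor of monocytes and B cells, rose with it. At 6 weeks its level was 104, 58.9, 92.5, 95.0 and 80.8 CPM in batch 1 and 56.3, 77.8, 62.6, 91.1 and 64.7 CPM in batch 2. At onset it was 108, 80.8, 172, 120.2 and 117 CPM in batch 1 and 135, 98.5, 102, 132 and 120.2 CPM in batch 2. The 5 onset values of batch 2 all lay above the 5 at 6 weeks, whereas those of batch 1 overlapped. The later samples exceeded 6 weeks by 0.46 ± 0.09 (SE), adjusted p = 3.8e-05 (edgeR), with higher means in 10 of 10 mice. Within batches the change was 0.39 ± 0.14 and 0.54 ± 0.11.

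Cd80 fell over the same interval, mainly in batch 2. In batch 2 its level was 32.1, 29.5, 25.2, 21.3 and 18.7 CPM at 6 weeks, 10.7, 11.8, 12.9, 10.7 and 7.53 CPM at −5 weeks and 9.39, 6.76, 11.6, 5.73 and 6.41 CPM at onset. In these mice every 6-week value lay above every later one. In batch 1 the 6-week values of 10.9, 15.7, 8.50, 10.5 and 6.86 CPM overlapped those at onset, which were 10.7, 13.6, 8.90, 7.12 and 5.48 CPM. The pooled change was −0.99 ± 0.17 (SE), adjusted p = 8.4e-06 (edgeR). It was −1.50 ± 0.20 (SE), adjusted p = 9.7e-07 within batch 2 and −0.34 ± 0.24 (SE), adjusted p = 0.306 within batch 1, and the difference between batches passed its own test (−1.15 ± 0.33 (SE), adjusted p = 0.0358).

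Batf3, Irf8 and Cd80 were thus 3 of 10 members called in progressors, where 39.4% of all 21279 genes tested were called (19.5% higher and 19.9% lower), so that the members' share is no higher than that of genes at large. The median log2 fold change of the 10 members, all of which passed the filter on low counts, was −0.12, beside 0.01 over all genes. All 3 calls were kept when any 1 of the 10 mice was left out, and when the mouse entered the model. An F test over the 6 times called these 3 genes and Siglech (adjusted p = 0.0168), beside 35.5% of genes. The summed level of 5 fibroblast genes was 27749 to 52999 CPM at 6 weeks and 6846 to 27872 CPM later in batch 1, and 27890.3 to 40768 and 4491 to 23696 CPM in batch 2, and all 5 fell. The sum of 8 macrophage genes was 2232 to 3055 and 2008 to 3279 CPM in batch 1, and 2371 to 3047 and 2243 to 3894 CPM in batch 2. The part of these cells in the change of the members was not tested.

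**Figure D2:**
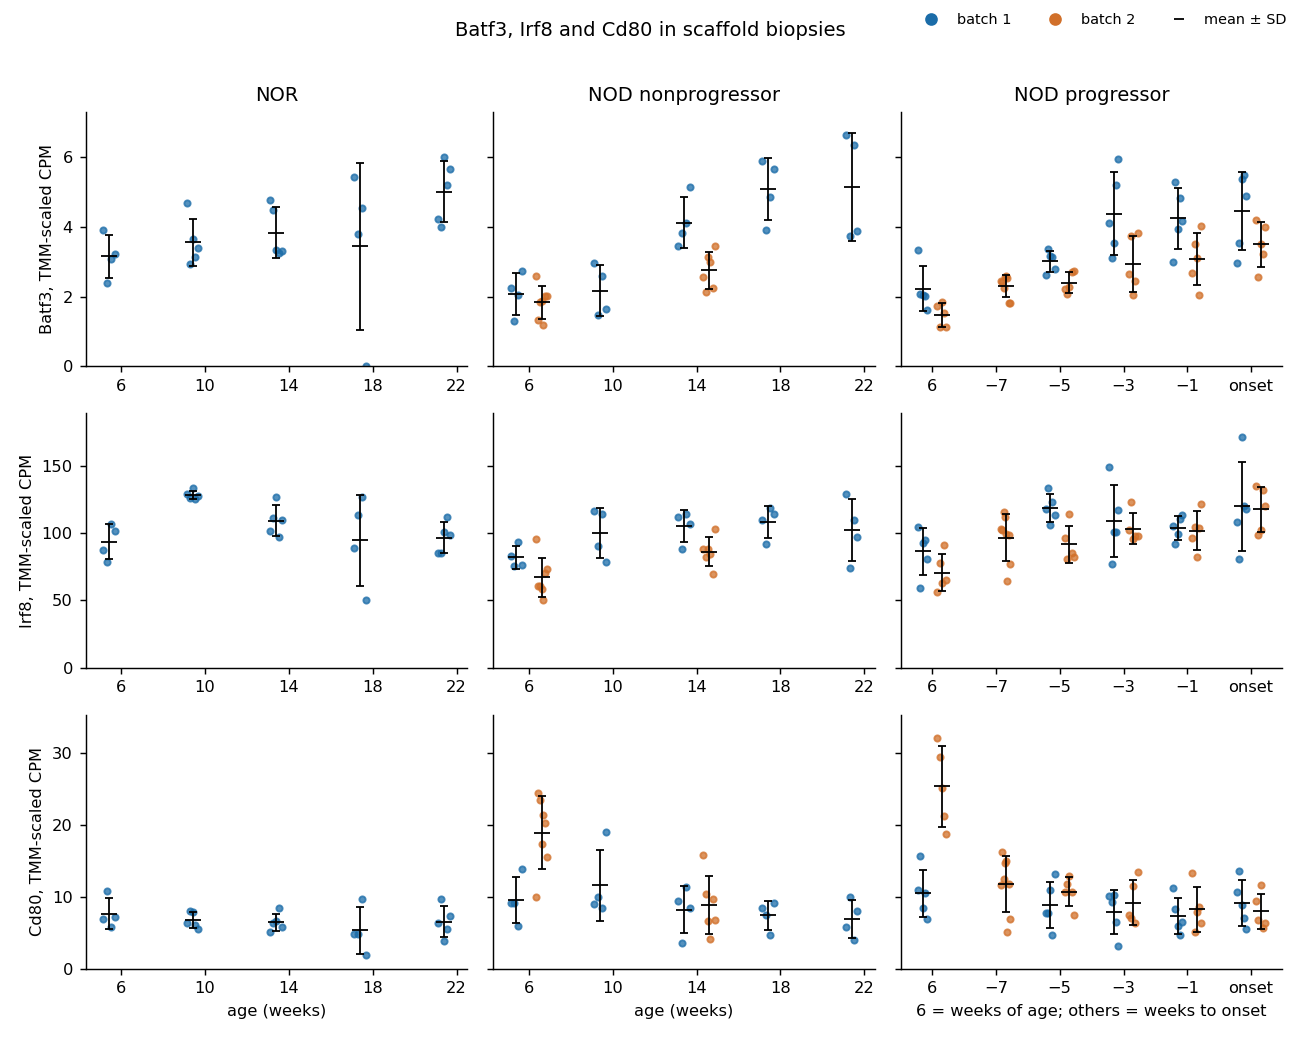
CPM of Batf3, Irf8 and Cd80 (rows) by strain, outcome and time (columns; age in weeks, or weeks to onset for progressors after 6 weeks); each point is a sample, blue for batch 1 and orange for batch 2, with mean ± SD in black. In progressors Batf3 and Irf8 lie higher on average at onset than at 6 weeks, and Cd80 at 6 weeks of batch 2 lies between 18.7 and 32.1 CPM, above all its later values.

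At −7 weeks, all libraries were sequenced in batch 2, those of progressors 1 to 4 included, whose other samples were in batch 1. Batf3 was 1.80 to 2.60 CPM (median 2.43, n = 8), Irf8 63.9 to 115 CPM (median 100.5, n = 8) and Cd80 5.15 to 16.2 CPM (median 12.2, n = 8). Batf3 at −7 weeks overlapped the 6-week range of batch 2 by 1.80 to 1.84 CPM, and Cd80 lay wholly below the 6-week values. Against the same 6-week samples as in the preceding comparison, edgeR called Batf3 higher (0.58 ± 0.15 (SE), adjusted p = 0.00749), Irf8 higher (0.39 ± 0.12 (SE), adjusted p = 0.0249) and Cd80 lower (−0.72 ± 0.25 (SE), adjusted p = 0.0488), beside 12.5% of genes (5.87% higher and 6.61% lower). The call of Batf3 was kept without any 1 mouse, whereas that of Irf8 was lost without progressor 3, that of Cd80 without progressor 7 or 9, and both without progressor 4, 6, 8 or 10. Within batch 2 these 3 were called with Itgae (0.67 ± 0.19 (SE), adjusted p = 0.0134), beside 19.0% of genes. In a model with mouse and batch as terms, no member was called, and the changes of Batf3, Irf8 and Cd80 were 0.48 ± 0.20 (SE), adjusted p = 0.147, then 0.17 ± 0.14 (SE), adjusted p = 0.552, and −1.0 ± 0.31 (SE), adjusted p = 0.0577.

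In nonprogressors, the test pooled over both batches called Batf3 and Irf8 higher after 6 weeks, and Flt3 and Cd86 lower. Batf3 was 2.24, 1.30, 2.04 and 2.74 CPM at 6 weeks in mice 1 to 4 of batch 1 and 6.62, 3.74, 6.34 and 3.88 CPM at 22 weeks (with Rn7s2 at 12.8 to 30.5% of counts), with no overlap. In batch 2 it was 1.18 to 2.59 CPM (median 1.88, n = 7) at 6 weeks and 2.12 to 3.45 CPM (median 2.77, n = 6) at 14 weeks, which overlapped. The mean of 10 to 22 weeks exceeded 6 weeks by 0.74 ± 0.17 (SE), adjusted p = 0.00200 for Batf3 and by 0.33 ± 0.10 (SE), adjusted p = 0.0136 for Irf8 (edgeR), and 9 of 10 mice were higher for each gene. Within batch 1, where 13.6% of genes were called, Batf3 changed by 0.91 ± 0.23 (SE), adjusted p = 0.0152 and within batch 2 by 0.60 ± 0.18 (SE), adjusted p = 0.0202. Irf8 differed by 0.35 ± 0.12 (SE), adjusted p = 0.0673 within batch 1 and by 0.38 ± 0.12 (SE), adjusted p = 0.0281 within batch 2.

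Cd86, a costimulatory ligand that rises as dendritic cells mature, fell in nonprogressors, with a change of −0.47 ± 0.15 (SE), adjusted p = 0.0233. Its level in batch 1 was 4.59, 4.82, 4.96 and 5.66 CPM at 6 weeks and 3.15, 2.64, 2.33 and 2.24 CPM at 22 weeks (with Rn7s2 at 12.8 to 30.5% of counts), without overlap. In batch 2 it was 9.52 to 12.6 CPM (median 10.8, n = 7) at 6 weeks and 4.22 to 11.1 CPM (median 7.27, n = 6) at 14 weeks. Each of the 10 mice with both times had a lower mean later than at 6 weeks. The change was −0.30 ± 0.18 (SE), adjusted p = 0.284 within batch 1 and −0.59 ± 0.17 (SE), adjusted p = 0.0178 within batch 2.

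Flt3, the receptor of the dendritic cell growth factor, changed by −0.68 ± 0.19 (SE), adjusted p = 0.00956 in nonprogressors. It was 2.67, 3.77, 4.93 and 4.72 CPM at 6 weeks, 4.13, 3.97, 6.65 and 5.38 CPM at 14 weeks and 2.08, 1.62, 2.91 and 1.72 CPM at 22 weeks (with Rn7s2 at 12.8 to 30.5% of counts) in batch 1, so that each of these 4 mice was higher at 14 weeks and lower at 22 weeks than at 6 weeks. Over all ages, 8 of 10 mice had a lower later mean. Within batches it was −0.42 ± 0.26 (SE), adjusted p = 0.277 and −0.27 ± 0.17 (SE), adjusted p = 0.232, neither past the threshold. Batch 2 holds only 6 and 14 weeks, and the pooled change of −0.68 was larger in size than both, so it does not average the batches. From 6 to 14 weeks Flt3 rose in the 4 mice of batch 1, against −0.27 in batch 2. The 4 members called stood beside 24.0% of 21138 genes (9.83% higher and 14.1% lower), and the median log2 fold change of all 10 was −0.27 beside −0.03 over all genes. Without nonprogressor 1 the calls of Irf8 and Cd86 were lost (adjusted p = 0.0605 and 0.0650), and without nonprogressor 4 that of Flt3 (0.0586). An F test over the 5 ages called these 4 genes with Itgae and Cd80, beside 34.4% of genes, and with the mouse as a replicate block Cd80 was not called (adjusted p = 0.117). The 5 fibroblast genes fell here too, with sums of 21453 to 32789 CPM at 6 weeks and 9522 to 37255 CPM later in batch 1, and 25960.3 to 43503 and 8895 to 21613 CPM in batch 2.

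Cd80 and Irf4 fell in nonprogressors of batch 2 alone among the within-batch tests. From 6 to 14 weeks Cd80 changed by −1.09 ± 0.28 (SE), adjusted p = 0.00934 and Irf4 by −0.76 ± 0.15 (SE), adjusted p = 0.00246, beside 34.0% of genes. Cd80 was 10.0 to 24.5 CPM (median 20.3, n = 7) at 6 weeks and 4.17 to 15.8 CPM (median 8.26, n = 6) at 14 weeks. Irf4 was 21.8 to 33.8 CPM (median 24.5, n = 7) at 6 weeks and 9.04 to 19.6 CPM (median 15.1, n = 6) at 14 weeks, without overlap. In batch 1 Irf4 was 11.0, 6.34, 9.92 and 19.6 CPM at 6 weeks and 18.9, 14.7, 17.1 and 17.9 CPM at 14 weeks. The difference between the batches passed its test for Irf4 (−1.31 ± 0.33 (SE), adjusted p = 0.0376) and did not for Cd80 (−0.87 ± 0.48 (SE), adjusted p = 0.312), beside 2.94% of genes. The sum of 4 monocyte genes (Ly6c2, Ccr2, Plac8, Chil3) in batch 2 was 98.3 to 122 CPM at 6 weeks and 25.5 to 85.9 CPM at 14 weeks, and its part in these differences was not tested.

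In NOR mice no member was called for the mean of 10 to 22 weeks against 6 weeks with edgeR, where 7 of 19628 genes (0.0357%) were called and 1327 had an unadjusted p under 0.05, none of them a member. DESeq2 called 46 genes and no member. Without the 18-week library of NOR mouse 5, 12 genes and no member were called, and 2086 genes had an unadjusted p under 0.05, Batf3 and Irf8 among them (adjusted p = 0.382 and 0.409). Batf3 in NOR was 3.90, 2.40, 3.08 and 3.22 CPM at 6 weeks and 4.21, 3.98, 5.99, 5.19 and 5.66 CPM at 22 weeks, a range without overlap, yet its mean change over all later ages was 0.38 ± 0.23 (SE), adjusted p = 0.832. Irf8 in NOR was 87.5, 78.4, 107 and 101 CPM at 6 weeks, 129, 126, 133, 125 and 127 CPM at 10 weeks and 85.1, 84.9, 100.4, 112 and 98.8 CPM at 22 weeks, so that the 10-week values stood above those at 6 and 22 weeks. The nonprogressor change after 6 weeks did not differ from the NOR change for any member or any of 20647 genes with edgeR (0.00% called, 1247 genes at an unadjusted p under 0.05, 9 genes with DESeq2). The difference was 0.56 ± 0.32 for Batf3, with a 95% interval of −0.07 to 1.19.

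Irf4 varied with age in NOR mice, and Cd209a passed its test narrowly. Both are linked to cDC2. For later ages against 6 weeks, where 0.0357% of all genes were called, 0 of 7 further cDC2 genes passed, and neither did Irf4 or Cd209a. These 7 genes were not examined over the 5 ages, so whether they vary like Irf4 was not tested. Irf4 was 5.57, 5.51, 8.84, 7.79 and 4.71 CPM at 10 weeks, 17.1, 10.0, 13.3, 7.99 and 15.6 CPM at 14 weeks and 21.3, 23.6, 15.1, 23.9 and 24.5 CPM at 22 weeks. At 6 weeks it was 14.3, 12.6, 7.35 and 12.4 CPM, and the 22-week values lay above all those at 6 and 10 weeks. An F test over the 5 ages gave adjusted p = 0.00189 for Irf4 and 0.0492 for Cd209a, beside 8.23% of genes. Cd209a was 2.55, 0.916, 0.730 and 0.896 CPM at 6 weeks and 3.60, 3.46, 3.08, 1.79 and 5.83 CPM at 22 weeks, with NOR mouse 1 at 6 weeks inside the later range. Irf4 passed when any 1 mouse was left out, and Cd209a did not in any of these 5 fits (adjusted p from 0.0658 without mouse 4 to 0.236 without mouse 5). Without the 18-week library of NOR mouse 5, Irf8 passed as well (adjusted p = 0.0340). In nonprogressors of batch 1, Irf4 was 7.74, 14.1, 6.55 and 26.2 CPM at 10 weeks and 17.2, 18.5, 13.7 and 10.7 CPM at 22 weeks, which overlapped.

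**Figure D3:**
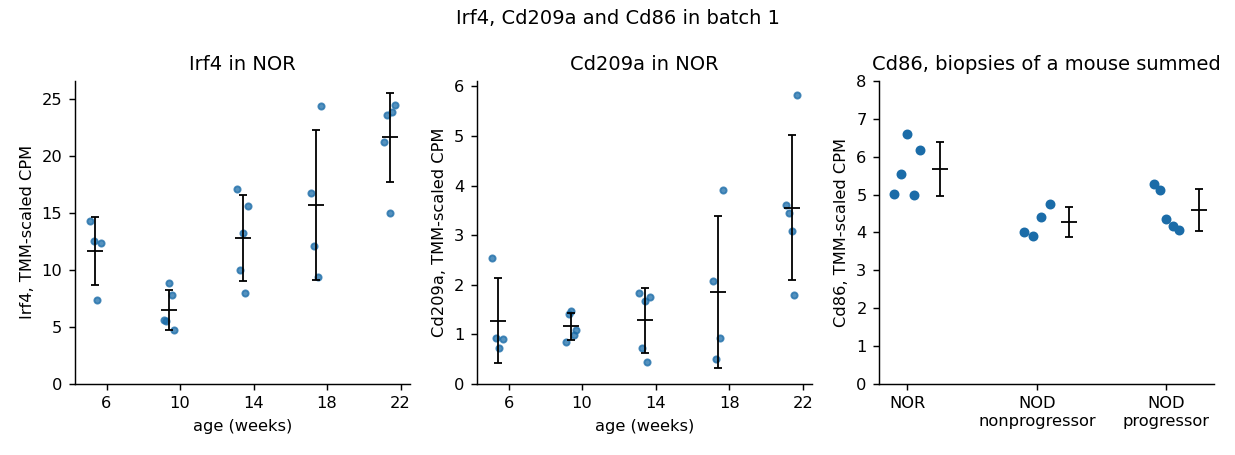
CPM of Irf4 and Cd209a in NOR samples by age in weeks (left and middle), and of Cd86 in 14 mice of batch 1 with the biopsies of a mouse summed (right); points are samples or mice and black bars are mean ± SD. Irf4 lies between 15.1 and 24.5 CPM at 22 weeks and between 4.71 and 8.84 at 10 weeks, and Cd86 is higher in NOR than in most NOD mice.

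Across strains, Cd86 was lower in NOD than in NOR mice. With the biopsies of each mouse summed, it was 5.03, 5.54, 6.17, 6.61 and 4.99 CPM in the 5 NOR mice, 4.01, 3.91, 4.42 and 4.75 CPM in the 4 nonprogressors and 5.27, 5.12, 4.35, 4.18 and 4.06 CPM in the 5 progressors of batch 1. The nonprogressors all lay below the NOR mice, and 2 progressors lay inside the NOR range. The sum of NOR mouse 4 includes an 18-week sample of 14.3 CPM, beside 2.93 to 4.03 CPM in the other 18-week NOR samples. The difference was −0.36 ± 0.09 (SE), adjusted p = 0.0180, the only member called, beside 8.92% of 23387 genes (3.87% higher and 5.04% lower in NOD). Without NOR mouse 3 or NOR mouse 4 it was not called (adjusted p = 0.0605 and 0.0596). With the 6-week samples alone it was −0.09 ± 0.25 (SE), adjusted p = 0.917.

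Cd209a did not pass, at −0.63 ± 0.19 (SE), adjusted p = 0.0501. It was 2.00, 1.60, 1.61, 0.931 and 2.11 CPM in NOR mice, 0.961, 0.865, 1.39 and 1.08 CPM in nonprogressors and 0.906, 1.21, 0.699, 1.34 and 1.18 CPM in progressors, so that NOR mouse 4 lay inside the NOD range. Without that mouse it was called (0.00866). Cd80 was 5.71, 8.11, 5.61, 6.63 and 6.00 CPM in NOR mice against 8.02, 7.51, 7.18 and 12.3 CPM and 9.61, 10.8, 8.63, 6.31 and 6.93 CPM in nonprogressors and progressors, with a difference of 0.41 ± 0.15 (SE), adjusted p = 0.109. DESeq2 called Cd86 and Cd209a lower and Cd80 higher in NOD, and so did edgeR with each sample entered separately, which treats biopsies of 1 mouse as independent. Flt3 was −0.38 ± 0.07 (SE), adjusted p = 0.00910 with progressors alone against NOR, where 1099 of 22946 genes were called and Cd86 was not (−0.31 ± 0.11 (SE), adjusted p = 0.138), and Itgae 0.39 ± 0.09 (SE), adjusted p = 0.0269 with nonprogressors alone. Of 8 macrophage genes, only some of which cDC2 also use, 4 were lower in NOD, among them C1qb (−0.88 ± 0.10), C1qa (−0.50 ± 0.10) and Csf1r (−0.26 ± 0.06). Of 8 further cDC2 genes 3 were lower and 1 was higher, with a median of 0.05, and of 8 cDC1 genes 1 was lower. Of 12 genes of mature or migratory dendritic cells 0 were called. These counts stand beside 8.92% of all genes. Macrophages also use Cd86, and the part of macrophages or dendritic cell subsets in its difference was not tested.

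During the last weeks before onset, Batf3 rose further. Between −5 weeks and onset it changed by 0.53 ± 0.14 (SE), adjusted p = 0.0309 and was higher at onset in 10 of 10 mice, the only member called by edgeR, beside 1.80% of 21279 genes (0.841% higher and 0.959% lower). At −5 weeks it was 2.60, 3.37, 3.15, 3.13 and 2.78 CPM in batch 1 and 2.22, 2.07, 2.27, 2.71 and 2.73 CPM in batch 2. The onset values above overlapped these in both batches. The change was 0.58 ± 0.21 (SE), adjusted p = 0.168 within batch 1 and 0.51 ± 0.19 (SE), adjusted p = 0.0863 within batch 2, and it fell short of the threshold without any 1 of progressors 3, 4, 6, 8 or 9 (adjusted p = 0.0785, 0.0581, 0.0883, 0.0870 and 0.0686).

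Cd209a, Siglech and Flt3 fell from −5 weeks to onset in batch 2. Cd209a was 4.13, 10.5, 3.70, 4.63 and 2.70 CPM at −5 weeks and 1.00, 0.826, 1.29, 0.428 and 1.05 CPM at onset, with no overlap and a decline in 5 of 5 mice. The change was −2.50 ± 0.46 (SE), adjusted p = 0.00112, and it was called when any 1 of the 5 mice was left out. In batch 1 Cd209a was 1.16, 1.25, 0.436, 0.574 and 0.244 CPM at −5 weeks and 1.50, 2.06, 0.445, 3.57 and 0.399 CPM at onset, higher in 5 of 5 mice, with a change of 1.16 ± 0.57 (SE), adjusted p = 0.304. The batches differed by −3.61 ± 0.77 (SE), adjusted p = 0.00365, beside 6.68% of genes, so the pooled value of −0.71 ± 0.46 averages opposite directions. Irf4 differed between the batches as well (−1.40 ± 0.39 (SE), adjusted p = 0.0242). It was 8.33, 6.10, 13.4, 9.90 and 16.0 CPM at −5 weeks and 17.4, 22.7, 17.1, 20.4 and 10.6 CPM at onset in batch 1, and 18.1, 32.4, 16.9, 21.6 and 20.4 and 12.4, 13.5, 15.6, 12.5 and 13.6 CPM in batch 2.

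Siglech, the plasmacytoid marker, was 3.59, 1.59, 14.2, 2.16 and 1.91 CPM at −5 weeks and 2.00, 1.04, 0.683, 1.37 and 1.91 CPM at onset in batch 2, where progressor 8 stood far above the rest at −5 weeks. The change was −1.78 ± 0.53 (SE), adjusted p = 0.0313, and without progressor 8 it was −0.58 ± 0.47 (SE), adjusted p = 0.592. Flt3 was 3.42, 3.57, 7.91, 2.69 and 3.21 CPM at −5 weeks and 2.15, 2.07, 1.79, 2.17 and 2.38 CPM at onset, again with progressor 8 highest. Its change was −1.01 ± 0.30 (SE), adjusted p = 0.0295, and −0.58 ± 0.30 (SE), adjusted p = 0.347 without progressor 8. Without progressor 6 neither passed (adjusted p = 0.0573 for Flt3 and 0.0546 for Siglech), and without progressor 7 Flt3 did not (0.0590). These 3 genes were the members called within batch 2, beside 9.17% of genes. Within batch 1 no member and 1 of 19596 genes (0.0051%) passed with edgeR. Pooled over both batches, Siglech was −1.14 ± 0.34 (SE), adjusted p = 0.0603 with edgeR and −1.13 ± 0.32 (SE), adjusted p = 0.0234 with DESeq2. In batch 2 the sum of 7 T cell genes was 12.9 to 79.1 CPM at −5 weeks and 8.85 to 29.1 CPM at onset, that of 4 NK cell genes 2.45 to 19.0 and 1.87 to 5.39 CPM, and that of 3 endothelial genes 84.6 to 193 and 31.8 to 85.5 CPM. In batch 1 the T cell sum was 6.67 to 31.3 and 6.39 to 12.8 CPM. Their part in the fall was not tested.

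**Figure D4:**
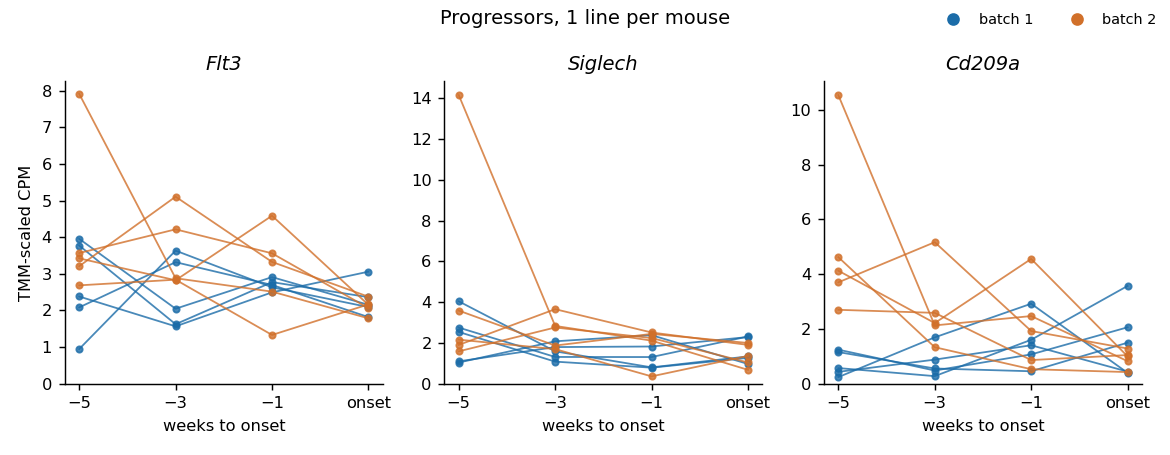
CPM of Flt3, Siglech and Cd209a in progressors at −5, −3, −1 weeks and onset; each line is a mouse, blue for batch 1 and orange for batch 2. In batch 2 all 5 lines of Cd209a end lower at onset than they began at −5 weeks, and progressor 8 starts highest for Flt3 and Siglech.

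Itgae, the CD103 integrin chain, took opposite directions in the batches. In progressors of batch 1 it was 2.50, 2.37, 4.37, 2.28 and 3.49 CPM at 6 weeks and 1.05 to 3.70 CPM (median 2.01, n = 20) from −5 weeks to onset, lower on average in 5 of 5 mice. In batch 2 it was 2.30, 1.92, 2.13, 1.93 and 1.95 CPM at 6 weeks and 1.68 to 4.38 CPM (median 2.83, n = 20) later, higher in 5 of 5 mice. Batch by batch the changes were −0.56 ± 0.21 (SE), adjusted p = 0.0510 and 0.52 ± 0.17 (SE), adjusted p = 0.0196, and their difference was 1.08 ± 0.27 (SE), adjusted p = 0.0181, beside 4.59% of genes. T cells also carry CD103, and the sum of 7 T cell genes was 9.93 to 25.2 CPM at 6 weeks and 6.21 to 31.3 CPM later in batch 1, and 5.04 to 12.8 and 6.88 to 79.1 CPM in batch 2. All 4 adipocyte genes differed between the batches in the same test, with a median of 6.66, and their sum was 4.14 to 209 CPM at 6 weeks and 1.12 to 287 CPM later in batch 1, and 1.02 to 5.67 and 7.42 to 276 CPM in batch 2. The part of either was not tested.

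Flt3, Irf4, Siglech, Cd209a and Cd86 did not pass in the pooled test of progressors after 6 weeks. The log2 fold change of Cd86 was −0.32 ± 0.16 (SE), adjusted p = 0.103 (95% interval −0.63 to −0.01), with lower means in 8 of 10 mice. In batch 2 it was 9.72, 7.77, 11.0, 13.7 and 10.8 CPM at 6 weeks and 4.77 to 15.6 CPM (median 7.02, n = 20) later, and in batch 1 7.46, 6.38, 3.49, 5.75 and 2.50 CPM and 1.74 to 7.40 CPM (median 4.55, n = 20). Those of the others were −0.22 ± 0.17 for Flt3 (interval −0.55 to 0.12), −0.17 ± 0.18 for Irf4 (interval −0.52 to 0.19), −0.21 ± 0.26 for Siglech (interval −0.72 to 0.29) and 0.48 ± 0.36 for Cd209a (interval −0.21 to 1.18). Within batch 2 Irf4 fell after 6 weeks (−0.49 ± 0.19 (SE), adjusted p = 0.0483), as it did in nonprogressors of that batch.

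Zbtb46, the marker of conventional dendritic cells that endothelial cells also use, passed no test in any comparison. It was 10.6 to 19.6 CPM (median 13.2, n = 19) in NOR after 6 weeks, 8.80 to 18.6 CPM (median 13.6, n = 16) in nonprogressors and 9.30 to 18.0 CPM (median 13.2, n = 20) in progressors of batch 1, and 11.9 to 18.5 CPM (median 14.9, n = 20) in progressors of batch 2. The 19.6 CPM in NOR rests on 20 counts in the 18-week library of NOR mouse 5, and the next highest NOR value was 17.8 CPM. The change of Zbtb46 after 6 weeks was −0.05 ± 0.09 in progressors, with a 95% interval of −0.22 to 0.12.

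Outcome did not separate the members at 6 weeks of age. Between 10 progressors and 11 nonprogressors edgeR called 0 of 20090 genes (0.00%), 980 had an unadjusted p under 0.05, none of them a member, and DESeq2 called 0. The largest difference among members was that of Cd80, 0.30 ± 0.17 (SE), adjusted p = 0.916, with a 95% interval of −0.03 to 0.63. Cd80 was 9.20, 9.09, 6.00 and 13.8 CPM in nonprogressors and 10.9, 15.7, 8.50, 10.5 and 6.86 CPM in progressors of batch 1. In batch 2 nonprogressors had 10.0 to 24.5 CPM (median 20.3, n = 7) and progressors 32.1, 29.5, 25.2, 21.3 and 18.7 CPM, which overlapped. Batf3 differed by −0.14 ± 0.17 (interval −0.47 to 0.19) and Irf8 by 0.08 ± 0.11 (interval −0.14 to 0.29).

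Late biopsies gave no call either. With −3, −1 weeks and onset of 10 progressors set against biopsies of 10 nonprogressors from 14 weeks on, summed per mouse (14, 18 and 22 weeks in the 4 mice of batch 1, 14 weeks alone in the 6 mice of batch 2), edgeR called 0 of 22803 genes (0.00%), 1597 had an unadjusted p under 0.05, and DESeq2 called 17 genes and no member. Siglech differed most among members, by −0.49 ± 0.19 (SE), adjusted p = 0.671 (interval −0.85 to −0.12), followed by Irf8 at 0.20 ± 0.08 (SE), adjusted p = 0.673, and these 2 had an unadjusted p under 0.05. Nor did the change after 6 weeks differ between progressors and nonprogressors for any of 22566 genes with edgeR (0.00%, 1447 at an unadjusted p under 0.05, 9 with DESeq2). That difference was 0.20 ± 0.18 for Batf3 (interval −0.16 to 0.55), 0.08 ± 0.13 for Irf8 (interval −0.17 to 0.33) and −0.36 ± 0.28 for Cd80 (interval −0.91 to 0.20).

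**Figure D5:**
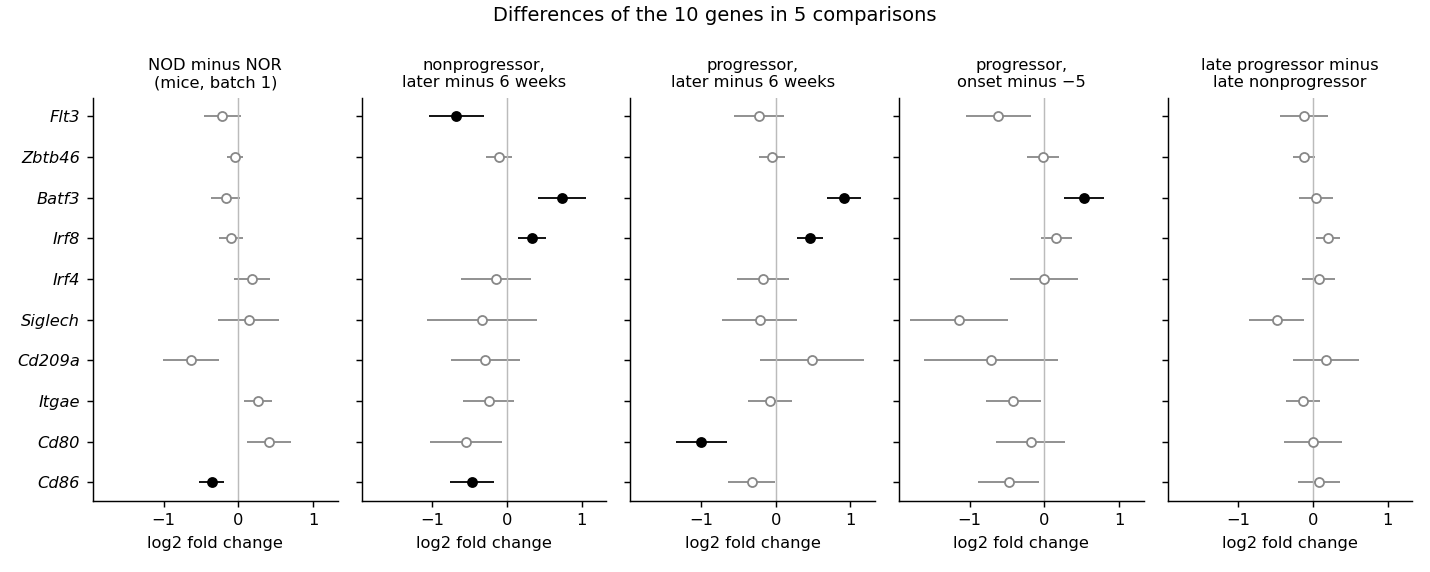
Log2 fold change of the 10 genes in 5 comparisons, with 95% intervals (1.96 SE, edgeR); filled points have an adjusted p under 0.05. Batf3 and Irf8 lie above 0 and filled in both NOD groups after 6 weeks, and no point is filled for late progressors against late nonprogressors.

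Other genes of the dendritic cell subsets moved in both directions after 6 weeks in progressors beside the 39.4% of all genes called, and no listed gene was without counts in any strain, outcome and batch. Of 8 further cDC1 genes, 2 rose and 1 fell, and their median log2 fold change was −0.01. The endosomal receptor Tlr3 fell (−0.26 ± 0.09), whereas Wdfy4, needed for cross-presentation, rose (0.18 ± 0.07), as did Id2 (0.41 ± 0.16). Xcr1 and Clec9a, which define cDC1, were −0.26 ± 0.24 and −0.17 ± 0.15 and did not pass, although Clec9a fell in nonprogressors (−0.46 ± 0.17), as did Tlr3 (−0.38 ± 0.09). Xcr1, Clec9a in progressors, and Ccr7 below were named after their values were seen. Of 7 cDC2 genes tested, 3 rose and 1 fell, with a median of −0.08, among them the lectin Mgl2 (1.67 ± 0.32) and Sirpa (0.31 ± 0.07), whereas Klf4 fell (−0.91 ± 0.19). Of 10 plasmacytoid genes, 2 rose and 3 fell, with a median of −0.20, with Runx2 at −0.38 ± 0.07, Bst2 at −0.54 ± 0.15 and Ptprs at 0.25 ± 0.08. Klf4, Sirpa, Id2, Bst2 and Runx2 are used by many other cell types.

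Of 12 genes of mature or migratory dendritic cells, 5 rose and 1 fell, with a median of 0.27. The inhibitory ligand Pdcd1lg2 rose by 2.32 ± 0.33 and Il4i1 by 0.83 ± 0.19, whereas Fscn1, which bundles actin in dendrites and in many stromal cells, fell (−0.96 ± 0.13). Ccr7, the receptor that guides dendritic cells to lymph nodes, was −0.19 ± 0.20. Among 8 ligands and partners tested, 5 rose and none fell, with a median of 0.56, including the GM-CSF receptor chains Csf2ra (0.58 ± 0.09) and Csf2rb (0.63 ± 0.10) and Ctla4 (2.21 ± 0.35), which binds Cd80 and Cd86. In nonprogressors Csf2ra and Csf2rb rose by 0.64 ± 0.10 and 0.61 ± 0.10, Pdcd1lg2 rose by 1.45 ± 0.42 and Fscn1 fell (−0.57 ± 0.16). Between −5 weeks and onset Pdcd1lg2 rose again (1.57 ± 0.34).

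Markers of other cells were counted over the same interval in progressors, beside the 19.5% of all genes called higher and 19.9% lower, with no test of the lists themselves. Of 7 T cell genes 4 rose (median log2 change over the list 0.83, beside 0.01 over all genes tested), of 6 B cell genes 4 rose (median 1.86), and of 4 plasma cell genes 3 rose (median 1.94), among them Jchain (4.82 ± 0.81). Of 8 macrophage genes 1 fell (Fcgr1, −0.69 ± 0.21), and of 3 endothelial genes 2 fell. Of 4 NK cell, 4 keratinocyte, 4 neutrophil and 2 Langerhans cell genes tested, 1 of each rose, and of 4 adipocyte and 3 skeletal muscle genes 0 passed. Of 4 monocyte genes 3 fell, with Plac8 at −1.37 ± 0.27 and Ly6c2 at −1.36 ± 0.30, and Chil3 rose (3.13 ± 0.64). The B cell sum was 0.822 to 2.68 CPM at 6 weeks and 0.897 to 16.3 CPM later in batch 1, and 0.972 to 2.72 and 0.798 to 14.2 CPM in batch 2. B cells use Irf8 and their part in its rise was not tested.

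The members did not vary together detectably from mouse to mouse. Among 21 NOD mice at 6 weeks, with batch means removed, none of 45 pairs passed the adjusted threshold (permutation within batch, two-sided). The smallest Pearson p was that of Siglech and Cd80, r = −0.54 (permutation p = 0.0133, adjusted p = 0.279) and rho = −0.44 (p = 0.0507, adjusted p = 0.320), and without the 2 mice farthest from the median of Siglech r was −0.23. Flt3 and Itgae had r = 0.51 (permutation p = 0.0228, adjusted p = 0.279) and rho = 0.52 (p = 0.0234, adjusted p = 0.303), and r was 0.39 without the 2 farthest mice.

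Genes with patterns like those of the members were sought over all samples, by the lower of the Pearson correlations in batch 1 (74 samples) and batch 2 (46 samples), a description in which samples share mice and tissue make-up. Irf8 ran most closely with Prkcd (r = 0.84 and 0.90), Pik3cg (0.80 and 0.80) and Cxcl16 (0.79 and 0.87). Cd86 ran with the lectin genes Clec4a1 (0.79 and 0.85) and Clec4n (0.78 and 0.86), and with Rab32 (0.72 and 0.89). Cd80 ran with Arcn1 (0.76 and 0.86), Arl1 (0.74 and 0.86) and Lman1 (0.72 and 0.83), which serve membrane traffic between the endoplasmic reticulum and Golgi. Siglech was most like Klrk1 (0.71 and 0.85), a receptor of NK and T cells, Cacna1e (0.70 and 0.71) and Ms4a4b (0.69 and 0.73). Flt3 was most like Rnase6 (0.77 and 0.77), P2ry10 (0.74 and 0.73) and Tlr9 (0.74 and 0.72). Irf4 ran with Add3 (0.82 and 0.84), Pcolce2 (0.81 and 0.80) and Duox1 (0.83 and 0.78), and Itgae with Ptprcap (0.73 and 0.69), Septin3 (0.75 and 0.67) and Sh2d2a (0.74 and 0.67). Cd209a was most like its paralogs Cd209f (0.72 and 0.72) and Cd209d (0.68 and 0.88), with which it may share reads, and C3 (0.74 and 0.71). Batf3 was most like the transcripts Gm16315 (0.83 and 0.77), 4930563J15Rik (0.75 and 0.77) and Gm36933 (0.75 and 0.77), and Zbtb46, with Gprin3 (0.58 and 0.73), Spaar (0.56 and 0.64) and Jpx (0.55 and 0.67), had the weakest likeness.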

How the data were processed

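Total RNA of IN biopsies was depleted of ribosomal RNA and sequenced in 2 batches on different instruments. Per the labels, the authors used cutadapt, STAR and RSEM with GRCm38, with FastQC and MultiQC for quality (versions not given in the sources used here), and the deposited values are expected counts per gene, given as whole numbers. Both tables were joined on the gene identifier, and 0 columns belonged to no sample. CPM used TMM library sizes over all samples.

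Tests used edgeR 4.0.16 (R 4.3.3) by its quasi-likelihood test on genes passing its expression filter, with Benjamini-Hochberg adjusted p under 0.05 called, batch as a term where both batches entered, and DESeq2 1.42.0 as an alternative. Comparisons within a strain or outcome used biopsies as samples, with the mouse as a block as the alternative. The labels number the mice, which gives the pairing, and the mean correlation of deviations between biopsies of 1 mouse over 2000 genes was −9.66e-05 in NOR, 0.012 in nonprogressors and −0.00976 in progressors. Between biopsies of different mice at different times it was 0.0027, −0.00241 and 0.00308. Biopsies of 1 mouse were thus no more alike in NOR and progressors and hardly more in nonprogressors, and the pairing rests on the labels alone. Comparisons between mice summed the biopsies of each mouse. The scripts were tested on simulated data. Among 239 pairs of samples of 1 group the lowest chi-square per degree of freedom was 11.01, so no library appeared to be a copy of another. Correlations used log2(CPM + 0.5) and 100000 permutations.

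The text names all members, up to 3 called genes with the smallest p of each list, and the 3 genes most like each member. The members and lists were chosen with earlier results of these data known, and the tests of differences between batches, the fits leaving out single NOD mice, those leaving out a NOR mouse from the F test over ages or the 18-week library of NOR mouse 5, and the batch 1 test of 14 against 6 weeks were added after seeing the data. A test of NOR at 22 against 10 weeks was also run and then dropped, because these ages had been picked by their Irf4 values, and the F test over 5 ages stands in its place. The 6 samples labelled by days after implantation entered no comparison, since the labels link them to no age.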

Additional observations from a re-analysis of the deposited data

Results flagged for a closer look

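Of 230 sets of 4 to 8 samples of 1 gene, group and batch, 16 held a sample far from the others by Dixon's criterion at 95%, where chance gives about 1 in 20.

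Progressor 8 at 5 weeks before onset stood above the other 4 mice of batch 2 for Flt3 (7.91 CPM beside 2.69 to 3.57) and Siglech (14.2 CPM beside 1.59 to 3.59), and progressor 7 for Cd209a (10.5 CPM beside 2.70 to 4.63). At 3 weeks before onset in batch 2, progressor 7 was highest for Irf8 (123 CPM beside 95.1 to 102) and progressor 8 for Irf4 (28.7 CPM beside 15.9 to 18.3). Progressor 9 was lowest for Siglech at 1 week before onset (0.363 CPM beside 2.11 to 2.51). Progressor 1 was highest for Batf3 at 6 weeks in batch 1 (3.33 CPM beside 1.62 to 2.07).

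Among nonprogressors of batch 1, mouse 4 was highest for Cd80 at 10 weeks (19.0 CPM beside 8.44 to 10.0) and for Zbtb46 at 6 weeks (15.4 CPM beside 14.3 to 14.4), mouse 3 was highest at 18 weeks for Flt3 (5.06 CPM beside 2.04 to 2.43) and Cd209a (1.75 CPM beside 0.780 to 0.895), and mouse 1 was lowest for Cd209a at 6 weeks (0.639 CPM beside 1.40 to 1.46). The 18-week library of mouse 3 was shallow, with 4722396 counts in all, 26 of them on Flt3 and 9 on Cd209a. At 6 weeks in batch 2, mouse 8 was highest for Irf4 (33.8 CPM beside 21.8 to 26.1) and mouse 5 for Siglech (5.99 CPM beside 1.49 to 3.35). In NOR, mouse 4 was highest for Cd86 at 18 weeks (14.3 CPM beside 2.93 to 4.03) and mouse 1 for Cd209a at 6 weeks (2.55 CPM beside 0.730 to 0.916).

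The change over time differed between the batches, by a test of the difference itself (edgeR, batch 2 minus batch 1, log2 scale), in 5 cases. After 6 weeks in progressors it differed by 1.08 for Itgae and −1.15 for Cd80. From 5 weeks before onset to onset it differed by −1.40 for Irf4 and −3.61 for Cd209a. From 6 to 14 weeks in nonprogressors it differed by −1.31 for Irf4. The batches differ in the sequencing instrument and in most of the mice (progressors 1 to 4 have libraries in both), which cannot be told apart.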

How the results depend on the processing

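Among fitted changes of single members, 1173 values under other settings kept their direction and side of the threshold, 42 lost and 33 gained the call, and 112 changed sign. Of the values that changed sign, only Flt3 in nonprogressors was called in the report, and only Itgae in progressors within batch 2 was called under the alternative. Among group means of CPM scaled by plain totals in place of TMM, 31 of the values moved by more than 1 SD and 229 did not. For NOD against NOR, 1 member was called, against 3 with DESeq2 or with samples entered separately, 2 with nonprogressors alone and 0 with the 6-week samples alone (of all genes, 2085 were called, against 408 at 6 weeks and 1099 with progressors alone). For nonprogressors after 6 weeks it was 4, against 1 in batch 1 alone over all ages (2680 genes, against 5064 in both batches) and 1 at 14 weeks (1099 genes). For progressors after 6 weeks it was 3, against 5 in batch 2 alone, and 5285 genes were called in batch 1 against 8390 in both. At −7 weeks it was 3, against 0 with the replicate block (849 genes against 2656) and 4052 genes in batch 2 alone. From −5 weeks to onset it was 1, against 2 with DESeq2 (839 genes against 383), 0 with no filter (95 genes), 0 in batch 1 (1 gene) and 3 in batch 2 (1961 genes). For NOR after 6 weeks 7 genes were called, 46 with DESeq2, 2 with the block and 12 without the 18-week library of NOR mouse 5. DESeq2 called 17 genes in late biopsies and 9 in each test between age changes, where edgeR called 0. The causes were not tested. With 1 mouse left out, the members called ranged from 0 to 3 for NOD against NOR, from 2 to 4 in nonprogressors (where mice 1 to 4 of batch 1 were left out, and none of batch 2), from 3 to 4 in progressors, from 1 to 3 at −7 weeks, from 0 to 2 between −5 weeks and onset (10 to 1069 genes) or 1 to 4 within batch 2 (771 to 2440 genes), and 1 in each fit over NOR ages.

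The replicate block (mouse) left the number of members called after 6 weeks at 4 in nonprogressors and 3 in progressors, and beside the 3 calls at −7 weeks only that of Cd80 in the F test over nonprogressor ages was lost with it. No paired analysis was possible because the mice differ for NOD against NOR, for progressors against nonprogressors at 6 weeks and for late biopsies. Depth limits the low genes most, since Cd209a had under 10 counts in 5 samples and Siglech in 2. Time after 6 weeks, age and earlier explants rise together, and by the weekly schedule scaffolds explanted after 6 weeks had also been in place longer. Bulk levels mix cell number with expression per cell.

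For NOD against NOR the sign turned for Flt3 (0.20) with the 6-week samples alone, for Zbtb46 (0.010) with nonprogressors alone, for Siglech (−0.062) with progressors alone. Values with 1 mouse left out ran from −0.0021 to 0.19 for Siglech. Between progressors and nonprogressors at 6 weeks the sign turned for Zbtb46 (0.017) and Batf3 (0.078) in batch 1, for Irf4 (−0.12) and Cd86 (−0.14) with no batch term, for Irf4 (−0.066), Cd209a (0.040), Itgae (−0.047) and Cd86 (−0.023) in batch 2, for Cd86 (−0.0022) with no filter. Within batch 1 and with 1 mouse left out, values ran from −0.031 to 0.10 for Zbtb46, −0.11 to 0.26 for Batf3, −0.015 to 0.16 for Irf8, −0.065 to 0.55 for Irf4, −0.076 to 0.20 for Itgae, −0.069 to 0.37 for Cd80 and −0.15 to 0.18 for Cd86. In NOR after 6 weeks values with 1 mouse left out ran from −0.24 to 0.19 for Flt3, −0.26 to 0.33 for Itgae and −0.23 to 0.41 for Cd86. In nonprogressors after 6 weeks the sign turned for Flt3 (0.33), Zbtb46 (0.15), Irf4 (0.55), Siglech (0.20), Cd209a (0.13) and Itgae (0.41) in batch 1 at 14 weeks, for Zbtb46 (0.16), Cd209a (0.22) and Itgae (0.37) in batch 2 (14 weeks), for Irf4 (0.41) in batch 1. In progressors after 6 weeks the sign turned for Flt3 (0.073), Zbtb46 (0.17) and Itgae (0.52) in batch 2, for Irf4 (0.14) in batch 1. With 1 mouse left out, values ran from −0.11 to 0.0038 for Zbtb46 and −0.15 to 0.10 for Itgae. At −7 against 6 weeks the sign turned for Flt3 (−0.052) and Zbtb46 (0.078) with the replicate block, for Zbtb46 (0.14) in batch 2. Values with 1 mouse left out ran from −0.026 to 0.17 for Flt3, −0.14 to 0.045 for Zbtb46 and −0.12 to 0.063 for Cd86. Between −5 weeks and onset the sign turned for Zbtb46 (0.0040) and Irf4 (0.00079) with the replicate block, for Zbtb46 (0.23), Irf4 (0.73), Cd209a (1.16) and Cd80 (0.066) in batch 1, for Irf4 (0.0094) with DESeq2, for Irf4 (0.0083) with its size factors. With 1 mouse left out, from both batches or within batch 2, values ran from −0.27 to 0.053 for Zbtb46 and −0.86 to 0.20 for Irf4. Among late biopsies the sign turned for Flt3 (0.18), Cd209a (−0.0053), Itgae (0.058) and Cd86 (−0.018) in batch 2, for Batf3 (−0.14) and Cd80 (0.088) in batch 1, for Irf4 (−0.064) and Cd209a (−0.037) with −3 against 14 weeks alone, for Cd80 (0.0072) with no filter. Between the changes of nonprogressors and NOR values with 1 mouse left out ran from −0.052 to 0.12 for Zbtb46, −0.54 to 0.043 for Itgae and −0.071 to 0.30 for Cd80. Between the changes of progressors and nonprogressors the sign turned for Flt3 (−0.074), Batf3 (−0.081) and Irf4 (−0.29) in batch 1, for Zbtb46 (0.038), Irf4 (−0.024), Siglech (0.28) and Itgae (0.11) with the replicate block, for Irf4 (−0.011) with DESeq2, for Irf4 (−0.011) with its size factors.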

Other observations

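The 6 nonprogressor biopsies labelled by days after implantation, 2 at each of 31, 38 and 108 days in batch 1, are linked by no label to an age and were compared with nothing. Batf3 was 3.95 and 4.84 CPM at 31 days, 3.72 and 2.72 CPM at 38 days, and 3.93 and 4.60 CPM at 108 days. Irf8 was 132 and 137 CPM, then 117 and 93.5 CPM, then 136 and 143 CPM. Irf4 was 17.7 and 17.6 CPM at 31 days, 11.1 and 6.62 CPM at 38 days, and 23.4 and 25.7 CPM at 108 days. Siglech was 3.29 and 8.93 CPM at 31 days, the wider of its pairs, with 2.86 and 3.27 CPM at 38 days and 2.62 and 3.91 CPM at 108 days. Cd209a was 2.58 and 4.23 CPM and Itgae 4.89 and 5.86 CPM at 108 days. Cd86 was 8.25 and 7.97 CPM at 31 days, 5.70 and 5.27 CPM at 38 days, and 6.91 and 7.35 CPM at 108 days.

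In the 18-week library of NOR mouse 5, where 1233373 counts lay outside a single gene, Irf8 was at 49.9 CPM, beside 88.7 to 127 CPM in NOR mice 1, 3 and 4 at 18 weeks.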
